A study of Mus musculus with 4 samples.

Results

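The 7 genes described here are Trp63, which encodes the transcription factor p63, and 6 genes of the hemidesmosome, Col17a1, Itga6, Itgb4, Lama3, Lamb3 and Dst. They were chosen by name as a regulator of basal epithelial cells and components of the anchoring complex, and they are 7 of the 54446 genes in the expression table. RNA from mouse mammary cells was sequenced in 4 libraries, 1 per group, so no group had a replicate and no p-value is given. The cells came from wild-type C57BL/6 mice, were sorted by flow cytometry into basal and luminal cells, were grown in 3D in Matrigel, and received either 100 μM baicalin, a plant flavone glucuronide, or its solvent DMSO. The groups are thus basal-labelled cells with DMSO, basal-labelled cells with baicalin, luminal-labelled cells with DMSO and luminal-labelled cells with baicalin. The study's methods describe its glands as taken from female mice a few weeks old, and neither they nor the labels give, for a library, the exact age, the time of exposure or the number of mice. The levels are FPKM, counted fragments divided by exon length and by the depth of the library. The exon length is that of all annotated forms of a gene together, so levels compare only roughly between genes whose forms differ in length.

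Hemidesmosomes rivet the basal layer of an epithelium to the basement membrane. In them the integrin made of the Itga6 and Itgb4 subunits and the transmembrane collagen encoded by Col17a1 bind a laminin trimer outside the cell, and the plakins encoded by Dst and Plec tie them to keratin filaments inside it. p63 is the lineage factor of basal cells in the skin and the mammary gland, and genes of keratins, integrins and laminins are among its known targets. In the mammary duct the outer basal or myoepithelial layer touches the basement membrane, while luminal cells line the lumen.

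Between 19356107 and 20648792 fragments were recovered per library from the steps in the FPKM values. Most cell type markers went against the labels of the libraries. The 10 basal markers, among them Krt5, Krt14 and Acta2, summed to 1767 FPKM in the basal-labelled library with DMSO and to 5437 FPKM in the luminal-labelled one, and with baicalin to 485 and 7235 FPKM, and 10 of the 10 were higher with the luminal label in both pairs. The 14 luminal markers, among them Krt8 and Krt18, summed to 4163 and 1361 FPKM with DMSO and to 2575 and 1049 FPKM with baicalin in the same order. With DMSO 10 of the 14 were lower with the luminal label, 6 of them by more than 2-fold with 1 FPKM added, and 4 were higher, among them Foxa1, Gata3 and Pgr by more than 2-fold on that scale. Pgr, the progesterone receptor gene, had 1.08 FPKM with the basal label and 4.81 FPKM with the luminal one. With baicalin 12 of the 14 were lower with the luminal label, 4 of them past that threshold, and 2 were higher, neither past it. Of the genes above 0 FPKM in every library, 4.71% were higher and 3.86% lower past it with the luminal label in the DMSO pair. In the baicalin pair these shares were 5.24% and 2.99%. Itgb1, whose product CD29 is used to sort basal cells as the high fraction, ran as labelled with DMSO, at 348 and 207 FPKM, and had 243 and 232 FPKM with baicalin. The study's methods say that the purity of sorted cells was checked by flow cytometry, and these files hold no measure of it. As most markers went against the labels, the cell type is given below only as the label of a library, and every direction between labels is one between libraries. The 6 fibroblast markers summed to between 2.60 and 10.4 FPKM and the 5 endothelial markers to between 0.876 and 3.46 FPKM. The 6 immune markers summed to 7.86, 51.6, 4.51 and 13.8 FPKM in the basal-labelled libraries with DMSO and baicalin and then the luminal-labelled ones, nearly all of it from Cd68, and Cd3e was at 0 in 3 of the 4 libraries.

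A change was called when log2((FPKM + 1)/(FPKM + 1)) was past 1 in size. The 17787 genes above 0 FPKM in all 4 libraries were compared, and the 7 members are among them with at least 52 fragments in every library. Intervals on levels and FPKM ratios are 95% intervals from the recovered fragments and cover counting error only, not the spread between cultures. With 1 library per group, baicalin or label and any other difference between the cultures cannot be told apart. In bulk RNA, fewer cells of a type and less RNA per cell cannot be told apart.

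In the basal-labelled libraries, Trp63 and Col17a1 were the 2 of 7 members that fell with baicalin, each by more than 16-fold, and the other 5 had lower levels by less than the threshold. None of the 7 was higher. Of the genes compared, 5.48% were called in this pair of libraries, 3.33% as lower and 2.15% as higher. The median log2 change of the members was -0.37, beside 0.01 for the genes compared.

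In the luminal-labelled libraries, Lama3 was the 1 member of 7 that rose past the threshold with baicalin, and 6 of the 7 had higher FPKM. Across the genes compared 3.95% were called here, 2.37% as higher and 1.59% as lower. The members had a median log2 change of 0.49, beside -0.02 for the genes compared. Trp63 stayed near its DMSO level in this pair.

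**Figure D1:**
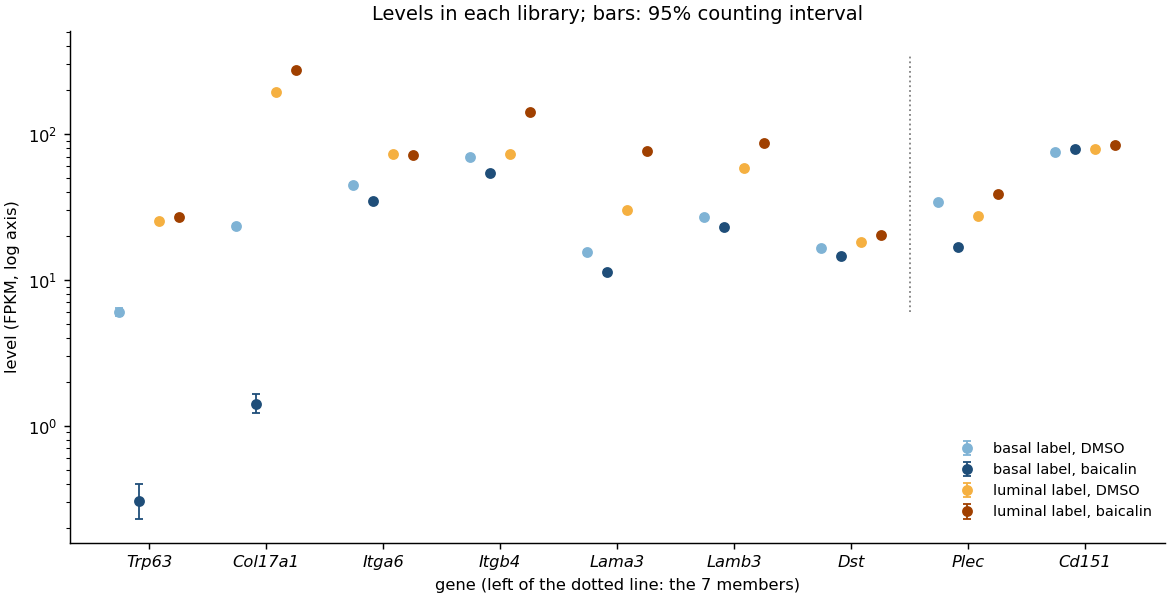
Level of each member, and of the partner genes Plec and Cd151 to the right of the dotted line, in the 4 libraries, in FPKM on a log axis. Each point is 1 library and the bars are 95% counting intervals, mostly smaller than the points. The dark blue points of the basal-labelled library with baicalin are the lowest for 7 of 7 members, and those of Trp63 and Col17a1 lie at 0.306 and 1.42 FPKM.

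Trp63 (ENSMUSG00000022510, GRCm38 chromosome 16, 25683763 to 25892102, plus strand) encodes p63. In the basal-labelled libraries it had 6.01 FPKM with DMSO and 0.306 FPKM with baicalin, and in the luminal-labelled ones 25.2 FPKM with DMSO and 27.0 FPKM with baicalin. The basal-labelled library with baicalin stands apart as the low one, and the luminal-labelled libraries are the high ones. Behind these levels were 1002, 52, 4101 and 4681 fragments. With the basal label the FPKM ratio of baicalin to DMSO was 0.0508 (0.0377 to 0.0671), which is a level 19.7-fold lower. The log2 change was -2.43 with 1 FPKM added and -4.30 without it, since the low level is under the added 1 FPKM. Among the 17787 genes compared, 54 had a lower value than Trp63 on the first of these scales. With the luminal label the ratio was 1.07 (1.03 to 1.12) and the log2 change 0.09.

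The annotation holds 8 protein-coding transcripts of Trp63 with 3 start positions, which include the long form with a transactivation domain and the short form without it that basal cells are known for. A gene-level value cannot separate these forms. The relatives Trp53 and Trp73 were read beside it. Trp53, the tumour suppressor, had 43.7 and 45.0 FPKM with the basal label and 29.1 and 38.9 FPKM with the luminal label, DMSO first, and neither pair was past the threshold. Trp73 had 49 fragments in the basal-labelled library with DMSO and 1 with baicalin, and 260 and 258 fragments in the luminal-labelled libraries. With the luminal label its ratio was 0.930 (0.780 to 1.11), an interval that includes 1.

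Col17a1 (ENSMUSG00000025064, chromosome 19, 47646344 to 47692094, minus strand) encodes the transmembrane collagen of the hemidesmosome. Its level was 23.2 FPKM with DMSO and 1.42 FPKM with baicalin in the basal-labelled libraries. In the luminal-labelled libraries it was 193 FPKM with DMSO and 272 FPKM with baicalin. The 4 libraries were ordered as for Trp63, with the basal-labelled baicalin library far below the rest. The ratio with the basal label was 0.0610 (0.0520 to 0.0712), or 16.4-fold lower (14.0 to 19.2), and 4 of the genes compared had a lower log2 change than its -3.32. The ratio with the luminal label was 1.41 (1.38 to 1.43), a log2 change of 0.49 that did not reach the threshold. By level, Col17a1 ranked 2301 among the genes of the basal-labelled library with DMSO and 11328 with baicalin, and 183 and 121 in the luminal-labelled libraries.

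The 2 basal-labelled libraries in which Trp63 and Col17a1 differed also differed in their cell type markers. With baicalin 3 of 10 basal markers fell there, Krt5, Krt14 and Krt17, and none rose, and 5 of 14 luminal markers fell, Krt8, Elf5, Kit, Prlr and Prom1, and none rose. In the luminal-labelled pair 1 basal marker rose, Krt17, and 3 fell, Cnn1, Tagln and Oxtr, while 4 luminal markers fell, Krt19, Kit, Prlr and Foxa1. Of the genes compared, 3.33% fell and 2.15% rose in the basal-labelled pair, and 1.59% fell and 2.37% rose in the luminal-labelled pair. The part of cell composition in the changes of Trp63 and Col17a1 was not tested.

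RefSeq windows around transcription starts (build GRCm38.p6) were found for 3 of the 7 members, Col17a1, Dst and Lamb3. The sequences before the start of Col17a1, which had the widest range of levels of the members, and of Dst, which had the narrowest, are shown so that a member that moved can be read beside one that varied little. RefSeq gives 2 such windows for Dst, and the one shown, at 68.8% GC before the start, is the one that held a motif searched here, while the other, which begins at position 34160010 and has 45.2% GC, held none. No annotated transcript of Dst begins at the RefSeq start of either window or holds the 30 bases from it. Which start the cells used cannot be read from gene-level FPKM. Both stretches are 5′ to 3′ on the strand of the gene and lie outside annotated exons. The Col17a1 stretch is chr19:47692095-47692292 on the minus strand, its capitals mark TATAAA, the TATA box, and the capitals in the Dst stretch, chr1:34011345-34011594 on the plus strand, mark GGGCGG, the GC box. The Col17a1 stretch ends 52 bases before its RefSeq start, because those 52 bases lie in an annotated exon. The Dst stretch runs up to its RefSeq start. The last line gives 30 bases just after the RefSeq start of Col17a1, chr19:47692008-47692037 on the minus strand, with a match to the p53 family decamer, the DNA element that p53, p63 and p73 can bind, in capitals.
Col17a1 upstream: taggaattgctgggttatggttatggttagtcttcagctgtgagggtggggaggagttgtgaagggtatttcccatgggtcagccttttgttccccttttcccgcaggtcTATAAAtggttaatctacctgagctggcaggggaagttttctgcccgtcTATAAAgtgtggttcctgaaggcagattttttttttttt
Dst upstream: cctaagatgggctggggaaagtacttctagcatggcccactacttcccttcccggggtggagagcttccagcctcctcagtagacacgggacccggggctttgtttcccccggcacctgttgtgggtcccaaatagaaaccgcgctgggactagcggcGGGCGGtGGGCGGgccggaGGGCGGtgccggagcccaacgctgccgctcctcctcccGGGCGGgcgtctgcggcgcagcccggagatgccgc
Col17a1 downstream: acctttgtcaGGACTTGTTTtttgaaggaa

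The TATAAA matches of Col17a1 began at -140 and -91 from its RefSeq start, and the decamer match at +16. These positions hold for the RefSeq start only. The annotated gene begins upstream of it, at 47692094, and no annotated transcript begins at the RefSeq start itself. The 4 GC box matches of Dst began at -92, -85, -73 and -35. Both strands of the 300-base windows, 250 bases before and 50 after a start, were searched for the p53 family decamer, for TGANTCA (the AP-1 element), for GGGCGG and for TATAAA, and none of these motifs can hold another. Of 32851 such windows in the genome, 8.36% held the decamer, 7.81% TGANTCA, 35.7% GGGCGG and 13.6% TATAAA. The windows of Lamb3 and the second window of Dst held none of the 4 motifs. The decamer was also found at -50 in a window of Cd151, a gene with 75.4 to 83.6 FPKM in the 4 libraries. A match is a match of letters and does not show that a factor binds there.

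**Figure D2:**
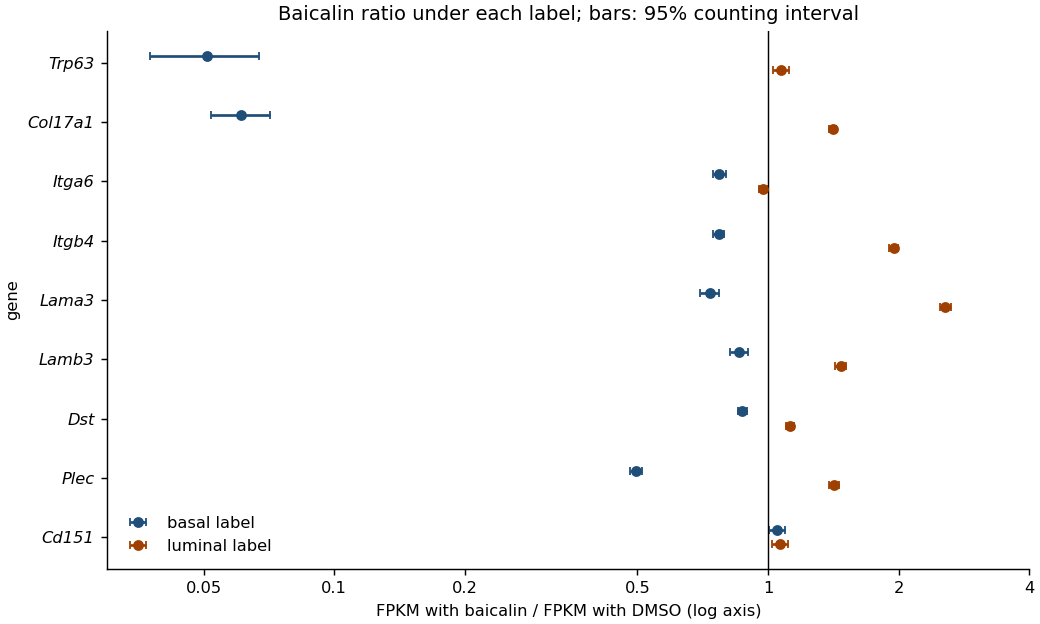
Ratio of FPKM with baicalin to FPKM with DMSO for the members, Plec and Cd151, on a log axis, with blue points for the basal-labelled pair and brown points for the luminal-labelled pair. Bars are 95% counting intervals and the line marks a ratio of 1. Trp63 and Col17a1 lie at 0.0508 and 0.0610 with the basal label and at 1.07 and 1.41 with the luminal label.

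Itga6 (ENSMUSG00000027111, chromosome 2, 71745616 to 71858416, plus strand) encodes the alpha subunit of the hemidesmosomal integrin, which also pairs with the beta subunit from Itgb1. Its levels were 44.9 FPKM with DMSO and 34.6 FPKM with baicalin in the basal-labelled libraries, a ratio of 0.772 (0.747 to 0.798). In the luminal-labelled libraries they were 73.2 and 71.3 FPKM, a ratio of 0.974 (0.951 to 0.998), and the counting intervals of these levels overlap. Itga6 is the member that did not have its highest level in the luminal-labelled library with baicalin.

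Itgb4 (ENSMUSG00000020758, chromosome 11, 115974709 to 116008412, plus strand) encodes the beta subunit found in hemidesmosomes, whose long cytoplasmic tail binds the plakins. It had 69.8 FPKM with DMSO and 53.7 FPKM with baicalin under the basal label, and the ratio of 0.769 (0.746 to 0.793) was close to that of Itga6. Under the luminal label it had 72.3 and 141 FPKM, a ratio of 1.95 (1.90 to 1.996). That log2 change, 0.95, is the nearest to the threshold from below of the members' baicalin values. Itgb4 was thus at like levels in the libraries with DMSO and apart in those with baicalin.

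The ratio of Itgb4 to Itga6 FPKM was 1.56 and 1.55 with the basal label, DMSO first, and 0.988 and 1.98 with the luminal label. Itgb1, whose protein CD29 is a marker used in the study's sorting of mammary cells, had 348 and 243 FPKM with the basal label and 207 and 232 FPKM with the luminal label. Itga3, the alpha subunit of the other laminin-binding integrin of basal epithelium, went the other way from Itga6 between the labels, with 110.6 and 75.2 FPKM in the basal-labelled libraries and 31.8 and 63.1 FPKM in the luminal-labelled ones.

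Lama3 (ENSMUSG00000024421, chromosome 18, 12333819 to 12583013, plus strand) encodes the alpha chain of the laminin trimer that hemidesmosomes hold. In the basal-labelled libraries it had 15.4 FPKM with DMSO and 11.3 FPKM with baicalin, a ratio of 0.733 (0.695 to 0.772). In the luminal-labelled libraries the level rose to 76.8 FPKM with baicalin from 29.97 FPKM with DMSO, with a ratio of 2.56 (2.49 to 2.64) and a log2 change of 1.33. Of the genes compared, 210 had a higher log2 change there.

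Lamb3 (ENSMUSG00000026639, chromosome 1, 193207699 to 193343878, plus strand) encodes the beta chain. It had 27.0 and 23.1 FPKM with the basal label, a ratio of 0.856 (0.815 to 0.898), and 58.7 and 86.3 FPKM with the luminal label, a ratio of 1.47 (1.43 to 1.51). The order of the 4 libraries was that of Lama3, with a smaller step at baicalin in the luminal-labelled pair.

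Lama3 and Lamb3 were most even in the luminal-labelled library with baicalin, where Lama3 had 0.890 times the FPKM of Lamb3. This ratio was 0.572 and 0.490 in the basal-labelled libraries with DMSO and baicalin, and 0.510 in the luminal-labelled library with DMSO.

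**Figure D3:**
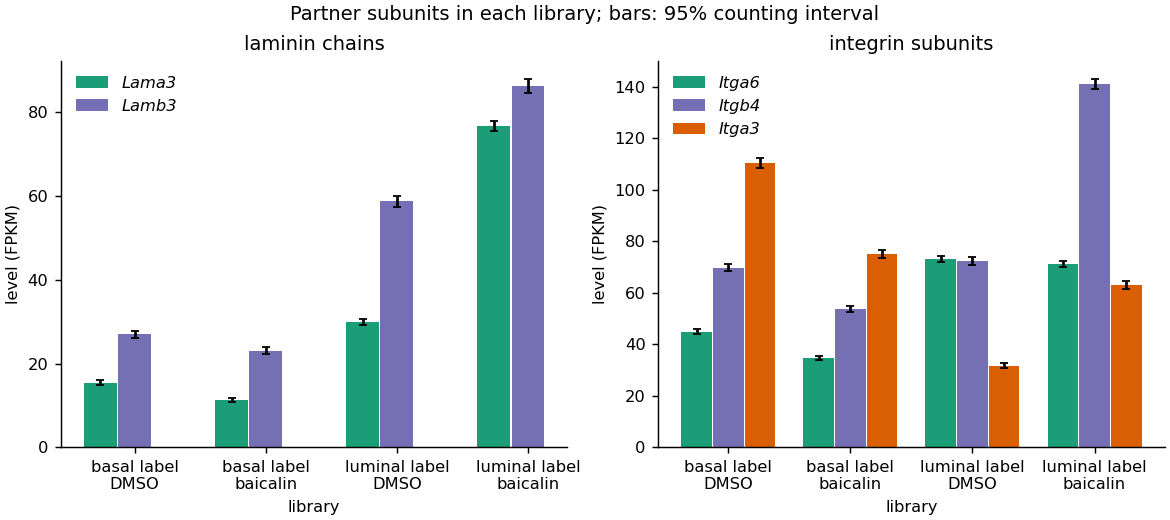
Levels in FPKM, from 0, of the laminin chains Lama3 and Lamb3 (left) and of the integrin subunits Itga6, Itgb4 and Itga3 (right) in each library. Bars give 1 library each, with 95% counting intervals. Lama3 and Lamb3 are at 76.8 and 86.3 FPKM in the luminal-labelled library with baicalin and at 11.3 and 23.1 FPKM in the basal-labelled one.

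Dst (ENSMUSG00000026131, chromosome 1, 33908225 to 34308661, plus strand) encodes dystonin, a plakin whose epithelial form, BPAG1e, anchors keratins at the hemidesmosome, and other forms of it are made in nerve and muscle. It varied least of the members. Its levels were 16.6 and 14.5 FPKM with the basal label, a ratio of 0.872 (0.851 to 0.894), and 18.1 and 20.4 FPKM with the luminal label, a ratio of 1.12 (1.10 to 1.15). The annotation gives 14 protein-coding transcripts with 11 start positions and 41155 exon bases in their union. The epithelial form cannot be read apart from the others in a gene-level FPKM.

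Plec, the other plakin of the hemidesmosome, had 34.0 FPKM with DMSO and 16.9 FPKM with baicalin in the basal-labelled libraries, a ratio of 0.497 (0.482 to 0.512) and a log2 change of -0.97 that lay just short of the threshold. In the luminal-labelled libraries it had 27.2 and 38.6 FPKM, a ratio of 1.42 (1.38 to 1.46). Cd151, a tetraspanin that associates with laminin-binding integrins, had between 75.4 and 83.6 FPKM in the 4 libraries, and its ratios of baicalin to DMSO were 1.05 (1.005 to 1.09) and 1.06 (1.02 to 1.11).

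Between the labels, 3 of 7 members were higher past the threshold in the luminal-labelled library with DMSO, namely Col17a1, Trp63 and Lamb3, and none was lower. In this pair 8.56% of the genes compared were called, 4.71% as higher and 3.86% as lower with the luminal label. The members' median log2 difference was 0.91, beside 0.01 for the genes compared. Col17a1 was 8.32-fold higher (7.998 to 8.66), Trp63 4.198-fold (3.92 to 4.50) and Lamb3 2.18-fold (2.09 to 2.27). The other 4 had log2 differences of 0.91 for Lama3, 0.69 for Itga6, 0.12 for Dst and 0.05 for Itgb4, and the value of Itgb4 turned to -0.058 when the FPKM were rescaled to TPM, which have the same sum in every library.

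With baicalin, 6 of 7 members were higher past the threshold in the luminal-labelled library, beside 8.23% of the genes compared called in this pair, 5.24% as higher and 2.99% as lower. The median log2 difference of the members was 1.86, beside -0.03 for the genes compared. Col17a1 was 192-fold higher (165 to 224), and 3 of the genes compared had a higher log2 difference than its 6.82. Trp63 was 88.4-fold higher (67.3 to 119), Lama3 6.79-fold (6.505 to 7.08), Lamb3 3.74-fold (3.59 to 3.89) and Itgb4 2.62-fold (2.56 to 2.69). Itga6 was 2.06-fold higher (1.997 to 2.12), with a log2 difference of 1.02 just past the threshold, and Dst, at 0.47, was the 1 member not called. These 2 comparisons between labels use the same 4 libraries as the baicalin comparisons, so the values are not independent of each other.

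**Figure D4:**
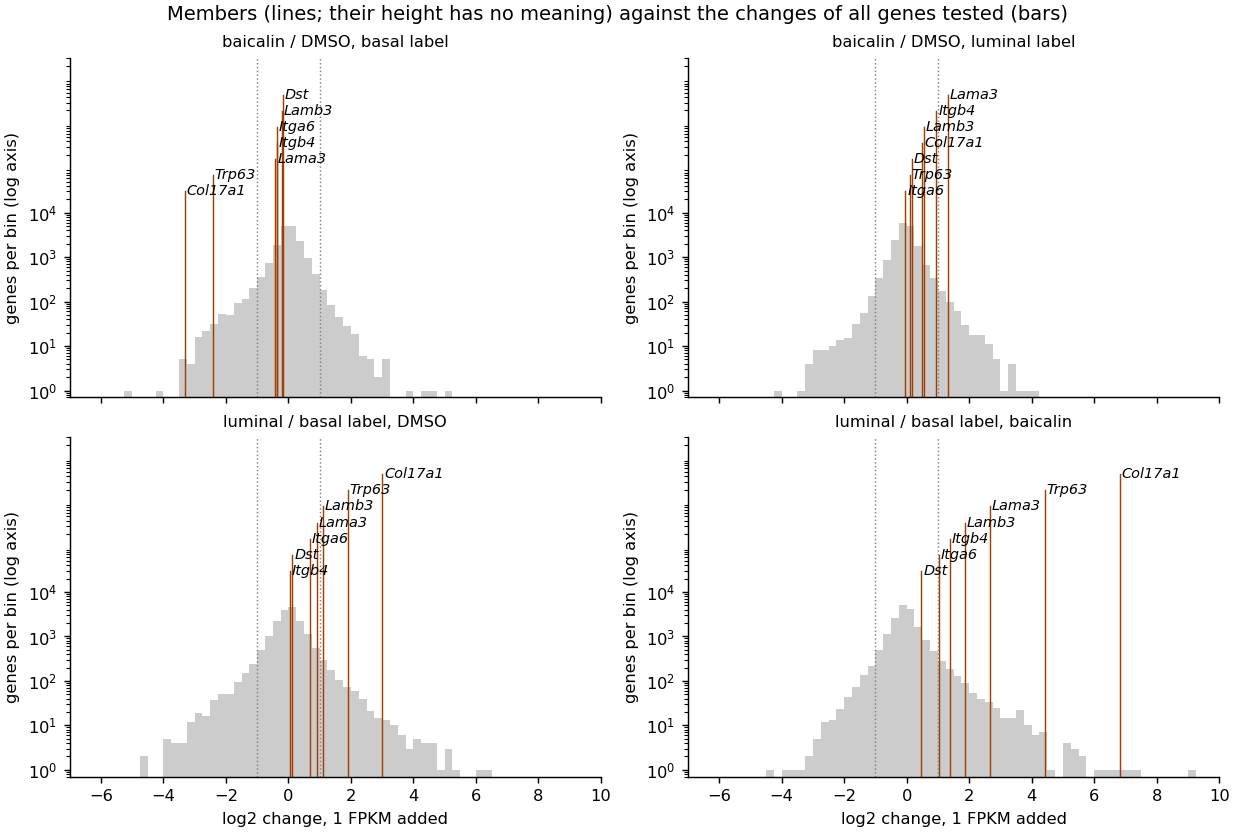
Number of genes per bin of log2 change with 1 FPKM added (grey bars, log axis), for the 17787 genes compared, in the baicalin comparisons (top) and the comparisons between labels (bottom). Brown lines mark the members at their log2 change, their height carries no value, and dotted lines mark the threshold of 1 in each direction. Col17a1 lies at -3.32 with baicalin in the basal-labelled pair and at 6.82 between the labels with baicalin.

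By level, Itgb4 led the members in both basal-labelled libraries, followed by Itga6 and Lamb3, and Col17a1 led in both luminal-labelled ones. In the luminal-labelled library with DMSO, Itga6 at 73.2 FPKM (71.9 to 74.4) and Itgb4 at 72.3 FPKM (70.9 to 73.8) did not differ beyond their counting intervals. Trp63 was the lowest member in the basal-labelled libraries, and Dst was in the luminal-labelled ones. The rank of Dst rests on the 41155 exon bases of all its forms together. The 7 members summed to 203 FPKM with DMSO and 139 FPKM with baicalin under the basal label and to 471 and 695 FPKM under the luminal label. Of these sums Col17a1 made up 11.5%, 1.02%, 41.1% and 39.2%. From the lowest to the highest library, Col17a1 spanned 192-fold, Trp63 88.4-fold, Lama3 6.79-fold, Lamb3 3.74-fold, Itgb4 2.62-fold, Itga6 2.11-fold and Dst 1.41-fold.

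Over the 4 libraries together, the ratio of Col17a1 to Trp63 FPKM moved less than either gene did. It was 3.86 and 4.65 in the basal-labelled libraries and 7.66 and 10.1 in the luminal-labelled ones, DMSO first. Within the luminal-labelled pair it moved more than Trp63, whose ratio of baicalin to DMSO was 1.07. The ratio of Col17a1 to Itgb4, by contrast, was 0.333 and 0.0264 with the basal label and 2.67 and 1.93 with the luminal label.

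Other genes known as p63 targets were read as a list of 18, chosen like the other lists from general knowledge and with results of these data known. In the basal-labelled libraries 7 of the 18 fell with baicalin and 1 rose, and the median log2 change was -0.57, beside 0.01 for the genes compared. Of the genes compared, 3.33% fell and 2.15% rose in this pair. Krt5, the basal keratin, fell from 128 to 3.01 FPKM. Pthlh, a parathyroid hormone related signal, fell from 11.1 to 1.04 FPKM, and Krt14, the partner of Krt5, from 1494 to 417 FPKM. Krt5 and Krt14 also stand among the basal markers. Cdkn1a, the cell cycle inhibitor p21 that p53 also induces, rose from 29.0 to 106 FPKM.

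In the luminal-labelled libraries 3 of the 18 rose and 1 fell, with a median of 0.21 beside -0.02 for the genes compared. Of the genes compared, 2.37% rose and 1.59% fell there. Cdkn1a rose from 24.7 to 72.7 FPKM, the Notch ligand gene Jag1 from 74.1 to 175 FPKM and Sfn, an epithelial 14-3-3 protein gene, from 176 to 383 FPKM. Bcam, a laminin receptor gene, fell from 121 to 43.4 FPKM. Between the labels 10 of the 18 were higher past the threshold with the luminal label in the DMSO pair and 1 was lower, at a median of 1.04, where 4.71% of the genes compared were higher and 3.86% lower at a median of 0.01. In the baicalin pair 12 were higher and none lower, at a median of 1.99, where 5.24% of the genes compared were higher and 2.99% lower at a median of -0.03.

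The basement membrane list held 26 further matrix genes, of which 24 were compared. With baicalin 1 rose and 2 fell in the basal-labelled pair, and 2 rose and 2 fell in the luminal-labelled pair, with medians of 0.00 and 0.02, beside 0.01 and -0.02 for the genes compared, of which 5.48% and 3.95% were called in these pairs. Col7a1, whose collagen forms the anchoring fibrils below hemidesmosomes, fell from 17.9 to 2.14 FPKM with the basal label and had 45.2 and 35.3 FPKM with the luminal label. Nid1, which links laminin to collagen IV, rose in both pairs, from 5.21 to 14.7 FPKM and from 9.44 to 60.0 FPKM. Sparc, a matrix glycoprotein gene, fell from 8.10 to 2.03 FPKM in the basal-labelled pair. Frem2 fell from 10.8 to 0.296 FPKM and Col18a1 rose from 55.2 to 139 FPKM in the luminal-labelled pair.

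Desmosomes join epithelial cells to each other and hold the same keratin filaments as hemidesmosomes. Of 14 desmosome genes 13 were compared. With baicalin 2 fell and none rose in the basal-labelled pair, at a median of -0.30, and 3 rose and none fell in the luminal-labelled pair, at a median of 0.57. Of the genes compared, 3.33% fell in the former pair and 2.37% rose in the latter, with medians of 0.01 and -0.02. The desmosomal cadherin gene Dsg3 fell from 23.1 to 8.68 FPKM in the former pair and rose from 70.8 to 173 FPKM in the latter. Dsc3, a low gene in the former pair, was the other that fell, from 1.98 to 0.182 FPKM. Dsg1a and Dsg1b also rose in the luminal-labelled pair, from 2.57 to 9.28 and from 1.73 to 10.6 FPKM, and as close copies of each other they may share fragments. Dsp, the plakin of the desmosome, had 106 and 69.3 FPKM with the basal label and 204 and 303 FPKM with the luminal label, not past the threshold in either pair.

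**Figure D5:**
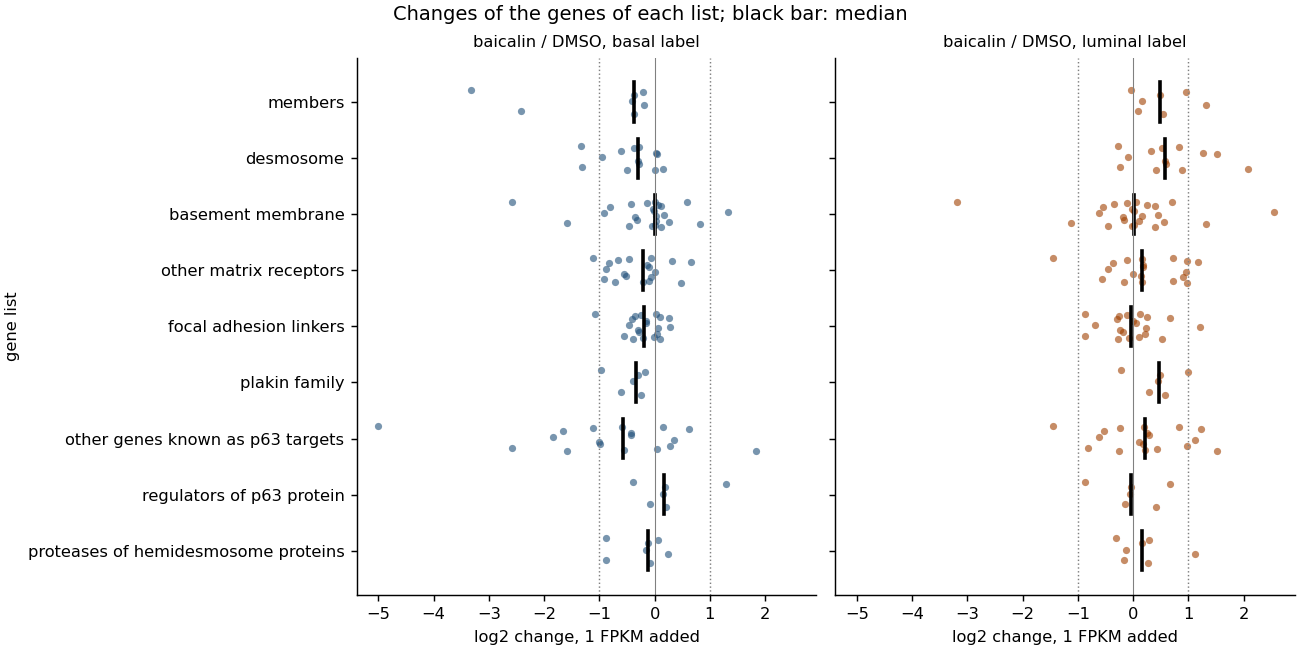
Log2 change with baicalin, 1 FPKM added, of each gene (points) in the members and 8 further gene lists, for the basal-labelled pair (left) and the luminal-labelled pair (right). Black bars are medians and dotted lines mark the threshold of 1. The members' median lies at -0.37 on the left and 0.49 on the right, and the desmosome list at -0.30 and 0.57.

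For each member the genes with the nearest pattern were found among 8989 genes, by the distance between their log2(FPKM + 1) values over the 4 libraries after each gene was centred on its mean. With 4 libraries such a likeness is loose, and it carries no test. Among those near Trp63 were Emb, at a distance of 0.43, with 23.0, 3.18, 79.7 and 63.8 FPKM in the library order used above, and Snai2, a transcription factor gene of basal cells, at 0.44. Nearest to Col17a1 were Dmkn, Moxd1 and Sparc, at 1.24, 1.27 and 1.40, farther than for any other member. The values were not scaled, so distances tend to grow with the range of a gene, and Col17a1 had the widest range of the members.

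Itga6 was nearest to Lgalsl, Cpd and Sgcb, at 0.026 to 0.066. For Itgb4 the nearest genes were Tgm1, Flrt3 and Tspan9, at 0.17 to 0.20, and for Lama3 they were Susd2, Prdm1 and Chit1, at 0.13 to 0.14. Lamb3 was nearest to Rcn1 at 0.080, Casp1 at 0.17 and Cotl1 at 0.20. Dst, the member with the smallest range, was nearest to Twf1, Dclk1 and Atox1, at 0.046 to 0.052. Among the members themselves Trp63 and Col17a1 were each other's nearest, at 1.88, with 108 genes nearer to Trp63 and 7 nearer to Col17a1. So were Lama3 and Lamb3, at 0.65, with 22 genes nearer to Lama3 and 126 nearer to Lamb3. Itga6 and Dst were too, at 0.59, with 781 genes nearer to Itga6 and 4375 nearer to Dst.

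Shared sequence touches few of these values. Of the exon bases of Itgb4, 7.66% lie opposite those of B230344G16Rik, which had at most 0.179 FPKM, and 1.83% of those of Lama3 lie opposite Gm29200, at most 0.762 FPKM. Of those of Dst, 2.52% lie opposite Gm26788, at most 0.0211 FPKM, and 1.11% opposite A930005N03Rik, at 0 FPKM in all 4 libraries. The counting may or may not have used strand, which the sources used here do not say, so reads from such pairs cannot be told apart. Dst holds stretches of 203 to 573 bases at 95% identity or more with 3 other genes and Itga6 holds 1 of 326 bases with Gm29397, while the other 5 members had no such match.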

How the data were processed

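RNA-seq of mouse mammary cells grown in 3D gave 4 libraries, 1 for each label and treatment. The authors selected poly(A) RNA on oligo (dT) beads, aligned reads with HISAT2 to GRCm38, counted them with featureCounts on Ensembl release 94 and deposited FPKM. The submitters' processing notes also name Bowtie 0.12.2, whose role is not given there. FPKM multiplied by exon length (GENCODE mouse release 21) fell on steps of 1 fragment, within 0.1 fragment for 98.8% to 99.0% of low genes, which gave the depth of each library. No count test was run. Intervals on levels are exact Poisson and those on ratios exact Clopper-Pearson intervals. A gene was called at a log2 change past 1 with 1 FPKM added, among genes above 0 FPKM in all libraries. The filter and the threshold are those of the study's methods, and the added 1 FPKM was chosen here. Their t-test could not be run with 1 library per group. The members, the 16 gene lists and the rule for named genes were chosen with earlier results of these data known. The lists hold 170 entries and 162 distinct genes, so some genes are shared between lists. That rule took the members, Plec, Cd151, Trp53 and Trp73, up to 4 genes of each list with the largest change at 5 FPKM or more, and the 3 genes nearest to each member. Itgb1, Itga3 and Col7a1 are given in libraries beyond that rule as partners of the members, chosen after their values were seen. Some genes that it selects are not reported here. Alternatives were other pseudocounts, scalings, filters, gene types and thresholds. The computation was tested on simulated data. Scripts ran in Python 3.11.15 with scipy 1.17.1 for intervals, pandas 2.3.3 and numpy 2.4.6 for tables, and matplotlib 3.10.9 for figures. Other treatments of the study were not analysed here.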

Additional observations from a re-analysis of the deposited data

Results flagged for a closer look

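For 6 of the 7 members and for Plec, the level was lower with baicalin in the basal-labelled pair of libraries and higher in the luminal-labelled pair. The ratio of the luminal-labelled to the basal-labelled baicalin response measures this, with 95% intervals for counting error. It was 23.1 (19.8 to 26.9) for Col17a1 and 21.1 (15.9 to 27.9) for Trp63. It was 3.50 (3.29 to 3.71) for Lama3, 2.86 (2.75 to 2.97) for Plec, 2.53 (2.44 to 2.63) for Itgb4, 1.72 (1.62 to 1.82) for Lamb3 and 1.29 (1.25 to 1.33) for Dst. With 1 library per group the difference between the labels was not tested. How many of the genes compared moved in opposite directions between the pairs was not counted. The pattern is therefore not shown to be particular to these genes. Itga6 had lower FPKM with baicalin in both pairs, with a ratio of 1.26 (1.21 to 1.31). For comparison, the ratio was 1.01 (0.955 to 1.08) for Cd151. The markers of the libraries also went against their labels, and the part of cell composition in these differences was not tested.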

How the results depend on the processing

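The count of 2 members called as lower with baicalin in the basal-labelled pair was the same under each of the 10 alternatives. With a threshold of 2 the count fell to 0 for baicalin in the luminal-labelled pair, to 1 between labels with DMSO and to 3 between labels with baicalin. With a threshold of 0.5 the first 2 of these were 3 and 5. Rescaling to TPM gave Itgb4 -0.058 between labels with DMSO in place of 0.05, and 5 members called in place of 6 between labels with baicalin, where Itga6 came to 0.97. Of 140 member values under other pseudocounts and scalings, 108 moved by less than their counting error, 31 moved by more and kept their sign, and 1 reversed. The background moved more. With no pseudocount 3747, 3096, 4798 and 4635 genes were called in place of 975, 703, 1523 and 1463, in the order basal-labelled baicalin, luminal-labelled baicalin, labels with DMSO and labels with baicalin. With a pseudocount of 0.1 the counts were 2425, 1965, 3494 and 3357. With TPM they were 1698, 1296, 2585 and 2522. The value added there was 1 TPM, which is less than 1 FPKM in these libraries, so that setting also has a smaller pseudocount. With a threshold of 0.5 the counts were 3424, 2899, 4717 and 4409, and with a threshold of 2 they were 173, 106, 335 and 301. No paired analysis was possible because each group has 1 library. No replicate could be left out for the same reason. Depth limits Trp63 in the basal-labelled library with baicalin, at 52 fragments, and Trp73 there, at 1.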

Other observations

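Further gene lists of the adhesion machinery were read in the same pairs, where 5.48% and 3.95% of the genes compared were called, at medians of 0.01 and -0.02. Of 20 genes that link integrins to actin at focal adhesions, 1 fell in the basal-labelled pair, Tln2, a talin gene, from 7.83 to 3.16 FPKM, and 1 rose in the luminal-labelled pair, Tns4, a tensin gene, from 20.4 to 48.2 FPKM. The medians of the list were -0.19 and -0.03. Of 19 other matrix receptor genes, Bcam fell in both pairs, from 28.5 to 12.7 FPKM and from 121 to 43.4 FPKM, and Itga2, a collagen receptor subunit gene, rose from 6.81 to 16.6 FPKM in the luminal-labelled pair. The medians were -0.21 and 0.17, and 15 of the 19 had lower values with baicalin in the basal-labelled pair. Bcam and Itga3 of this list also stand among the p63 targets above. Of 6 plakin genes none was called in either pair, with medians of -0.34 and 0.47. In the basal-labelled pair 6 of the 6 had lower values, and in the luminal-labelled pair 5 had higher values. Plec and Dsp, described above, are among the 6, so this list is not separate from those results.

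Genes that act on the proteins of the members were read as well. Of 6 regulators of p63 protein, Mdm2, a ubiquitin ligase gene that p53 induces, rose from 27.0 to 67.6 FPKM in the basal-labelled pair and had 20.5 and 33.0 FPKM in the luminal-labelled one. Nedd4, another ubiquitin ligase gene, had 151 and 114 FPKM with the basal label and 301 and 165 FPKM with the luminal label, with no call. Of 8 proteases that cut hemidesmosome proteins, 7 were compared. None was called with the basal label. With the luminal label 1 was called, Mmp9, a gelatinase gene, from 0.832 to 3.00 FPKM, which is named although its level is below the 5 FPKM of the rule. Neither Plec nor Cd151 was called in either baicalin pair, and Plec was called as higher with the luminal label in the baicalin pair, by a log2 difference of 1.15.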
